A study of Homo sapiens with 21 samples.

Results

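The mitochondrial calcium uniporter is the channel of the inner mitochondrial membrane through which calcium enters the matrix. Described here are 6 of the 27142 genes in the expression table, taken by symbol: MCU, MICU2, SMDT1, MCUR1, LETM1 and VDAC1. The set was chosen by the measured FPKM of MCU, which was low in the libraries of the non-targeting short hairpin RNA, so every comparison with those libraries is given for these genes as a description, with no test. MCU, MICU2 and SMDT1 encode parts of the channel itself and MCUR1 a regulator, whereas LETM1 and VDAC1 encode separate transport proteins, so the set is wider than the complex. All 6 genes passed the filter on low values (at least 1 FPKM, fragments per kilobase of exon and per M reads, in at least 3 libraries).

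Calcium crosses the outer mitochondrial membrane through voltage-dependent anion channels such as VDAC1 and is drawn across the inner membrane by the membrane potential. The pore is built of MCU protein and needs SMDT1, also called EMRE, a small membrane protein that joins the pore to its gatekeepers. Among them, MICU2 binds calcium through EF hands and helps to keep the pore closed at resting calcium. MCUB is a paralogue of MCU that lowers the current, MCUR1 is a regulator of uptake, and LETM1 is a cation/proton exchanger of the inner membrane. In the matrix, calcium stimulates dehydrogenases that feed the respiratory chain.

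The RNA came from HEK 293FT, an established line derived from human embryonic kidney, at passages 8 to 12 and 48 h after plasmids were delivered with Lipofectamine. There were 7 groups of 3 biological replicates. Of the 9 hairpin libraries, 3 received a non-targeting hairpin (shRNA NT), 3 a hairpin against ANXA4 (shRNA ANXA4) and 3 a hairpin against B4GALNT1 (shRNA B4GALNT1). Of the 12 libraries with RfxCasR, a CRISPR nuclease directed to RNA, 3 had a non-targeting guide (RfxCasR NT gRNA), 3 a B4GALNT1 guide (RfxCasR B4GALNT1 gRNA), 3 a non-targeting array of guides (RfxCasR NT array) and 3 an ANXA4 array (RfxCasR ANXA4 array). All groups were transiently transfected, and the labels do not give the share of cells that took up plasmid. In bulk RNA, fewer cells with a transcript and less transcript per cell cannot be told apart. The labels do not say whether replicates were separate transfections on separate days, and the p-values cover only the spread seen among these libraries.

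The 6 array libraries were the deepest, with 34.7 to 39.5 M reads worked back from FPKM, and the remaining 15 held 21.4 to 30.7 M. Of 10 markers of the cell line, 9 or 10 reached 1 FPKM in every group, and their summed level was 657 to 673 FPKM with shRNA NT and 857 to 971 in the other 18 libraries. The part of that shift in the values below was not tested. Markers of blood, endothelium, liver and muscle were each below 1 FPKM in every library, and of 3 fibroblast markers DCN was at most 0.098, LUM at most 1.86 and COL1A1 at least 4.17 FPKM. The targeted genes were low under the hairpins and the guide meant for them: ANXA4 was at 2.15 to 2.56 FPKM with shRNA ANXA4 and 5.57 to 6.31 with shRNA NT. B4GALNT1 was at 2.59 to 2.96 FPKM with shRNA B4GALNT1 and 3.92 to 4.27 with shRNA NT, and at 2.03 to 2.35 with its guide and 5.09 to 6.88 with RfxCasR NT gRNA. ANXA4 in the array groups contradicts the labels: its mean was 3.03 FPKM with the array labelled NT and 7.03 with the one labelled ANXA4, whereas the authors' deposited table gives -1.21 log2. Directions between the arrays are therefore those of the labels only.

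MCU, at hg19 chromosome 10, 74451889 to 74647452 on the plus strand (NM_138357), encodes the pore. In the shRNA NT libraries it was at 6.25, 5.99 and 6.32 FPKM, and in the other 18 libraries it ranged from 16.6 to 21.7 with a median of 19.2. The 3 libraries with the non-targeting hairpin lay below every other library, with a wide gap and little spread of their own. These levels rested on 400 to 445 recovered reads per shRNA NT library and 1186 to 2366 in the others, and intervals from such reads would cover counting error only.

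Outside the shRNA NT group, MCU levels lay close together. It was at 18.3, 16.6 and 17.7 FPKM with RfxCasR NT gRNA and at 19.0, 18.9 and 18.4 with shRNA ANXA4. It was at 19.5, 19.2 and 18.6 FPKM with RfxCasR B4GALNT1 gRNA and between 19.0 and 20.4 with RfxCasR NT array. It was at 20.7, 21.7 and 19.3 FPKM with shRNA B4GALNT1 and at 21.3, 21.1 and 20.4 with RfxCasR ANXA4 array. In this order of group means, from 17.6 to 20.9 FPKM, each group after shRNA ANXA4 overlapped the one before it. RfxCasR NT gRNA and shRNA ANXA4 did not overlap, although their difference did not pass the test (limma adjusted p = 0.0909).

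**Figure D1:**
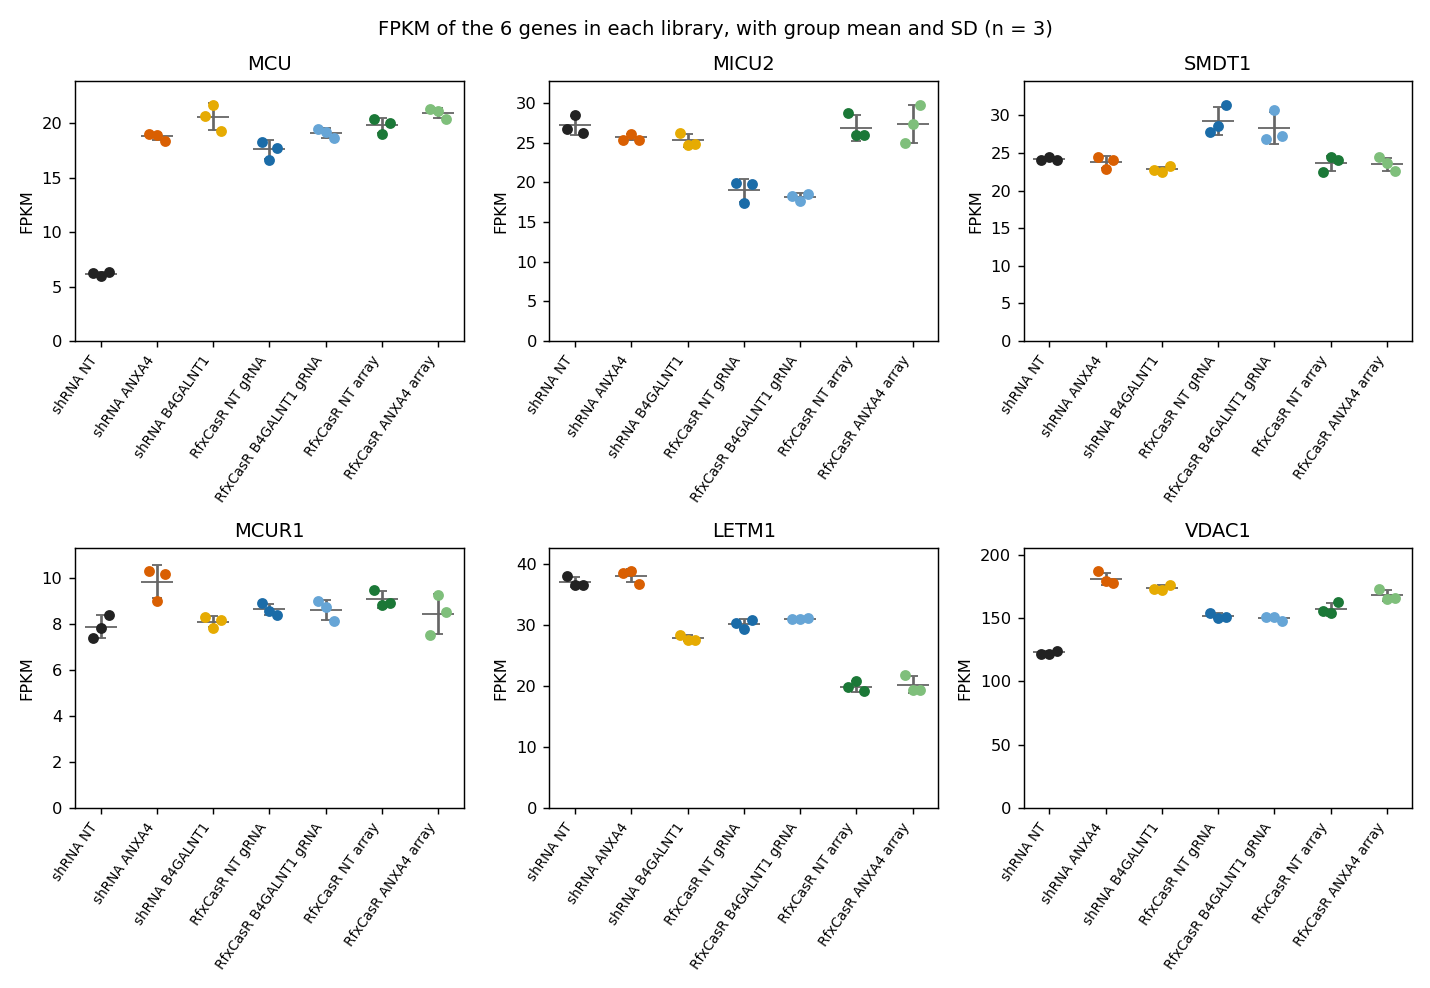
FPKM of the 6 genes on linear axes that start at 0, with 1 point per library, the group mean as a bar and the SD of 3 libraries as whiskers. MCU lies between 5.99 and 6.32 in the shRNA NT libraries and between 16.6 and 21.7 in all others, whereas MICU2 is lowest and SMDT1 highest in the 6 single-guide RfxCasR libraries.

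Against shRNA NT, mean MCU was 3.03 times as high with shRNA ANXA4 (18.8 ± 0.335 against 6.18 ± 0.173 FPKM, SD, n = 3). It was 3.32 times as high with shRNA B4GALNT1 (20.6 ± 1.21 FPKM) and 2.84 times as high with RfxCasR NT gRNA (17.6 ± 0.852 FPKM). These 3 comparisons share the shRNA NT libraries. On the log2(FPKM + 1) scale, which understates changes of low genes, the differences were 1.46, 1.58 and 1.37. Ranked from the highest difference among 13679 genes, MCU was in place 6, place 3 and place 13. The authors' deposited tables give 1.61 and 1.78 log2 for the comparisons of shRNA ANXA4 and shRNA B4GALNT1 with shRNA NT.

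The other 5 genes did not follow MCU as a set. VDAC1 was also lowest in the shRNA NT libraries, at 122, 122 and 124 FPKM, against 148 to 187 in the other 18. Its differences from shRNA NT were 0.56 log2 with shRNA ANXA4, 0.50 with shRNA B4GALNT1 and 0.30 with RfxCasR NT gRNA. SMDT1 was at 24.1 to 24.4 FPKM with shRNA NT and 22.5 to 24.4 with the targeting hairpins, and MICU2 at 26.2 to 28.5 and 24.7 to 26.2. MCUR1 differed from shRNA NT by 0.29, 0.04 and 0.12 log2 in the same 3 comparisons, and LETM1 by 0.04, -0.40 and -0.29. Counting genes whose libraries did not overlap, 3 of the 6 lay higher and 1 lower with shRNA ANXA4 than with shRNA NT, where 60.9% of all genes tested did not overlap (29.9% higher and 31.1% lower). With shRNA B4GALNT1 the counts were 2 and 2, where 55.5% did not overlap (23.1% and 32.4%). With RfxCasR NT gRNA they were 4 and 2, where 60.7% did not overlap (27.6% and 33.1%). Since the comparisons chose the set, nothing is read from these counts. The medians over the 6 genes were 0.162, -0.0227 and 0.19 log2, beside -0.00758, -0.0382 and -0.0194 over all genes tested.

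**Figure D2:**
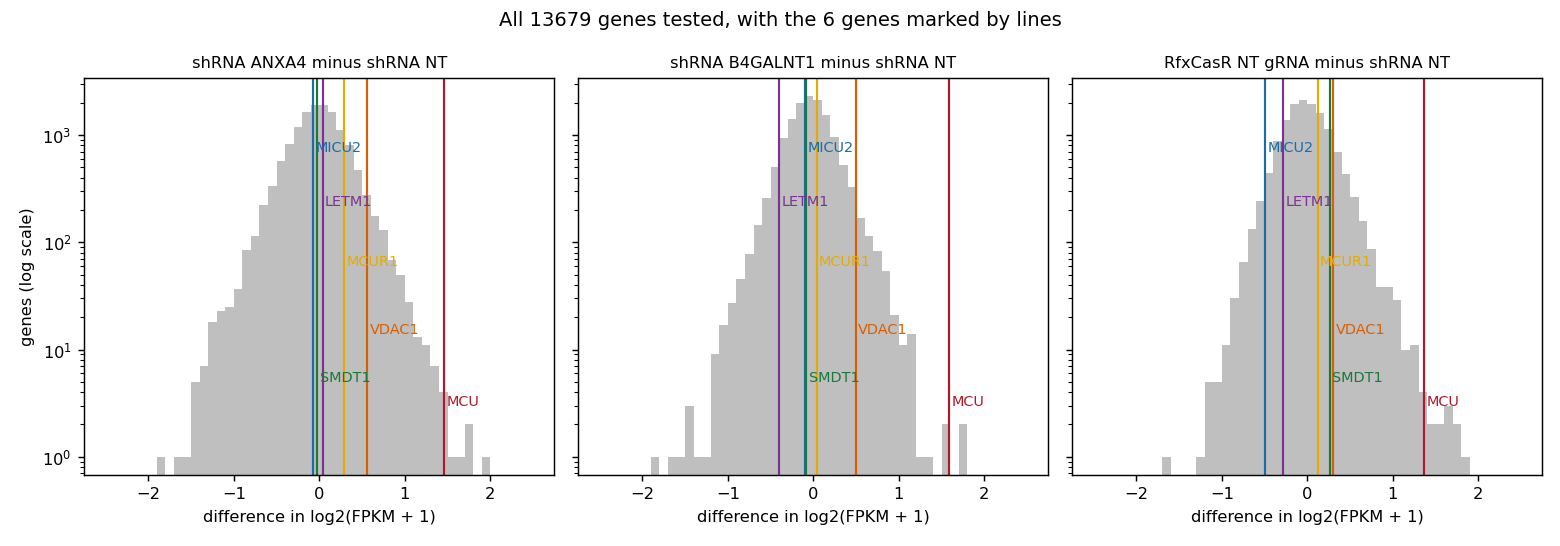
Histograms of the difference in log2(FPKM + 1) of all 13679 genes tested in the 3 comparisons with shRNA NT, with the number of genes on a log scale and a line for each of the 6 genes. MCU lies at 1.46, 1.58 and 1.37, near the upper end of each histogram, and VDAC1 follows at 0.56, 0.50 and 0.30.

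Between the RfxCasR groups, where the nuclease was present on both sides, none of the 6 genes was called. With the B4GALNT1 guide against the non-targeting guide, 0 of 6 passed a limma adjusted p of 0.05 (0.00731% of all genes tested were called). MCU alone had an unadjusted p under 0.05, and voom on the recovered reads also called 0. MCU was at 19.1 ± 0.427 against 17.6 ± 0.852 FPKM, a difference of 0.11 log2 (95% interval 0.02 to 0.21, limma adjusted p = 1). MCU and LETM1 lay higher without overlap, 2 of 6 where 11.8% of all genes tested did not overlap. Over the other 5 genes the differences were -0.06 to 0.04 log2.

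Between the libraries labelled ANXA4 array and NT array, again 0 of 6 genes were called by limma (0.285% of all genes tested), and voom called 0. VDAC1 alone had an unadjusted p under 0.05, at 168 ± 4.31 against 157 ± 5.1 FPKM (0.09 log2, 95% interval 0.03 to 0.15, limma adjusted p = 0.215). MCU differed by 0.08 log2 (95% interval -0.02 to 0.17, limma adjusted p = 0.576). The authors' deposited table gives -0.0765 log2 for VDAC1 and -0.0673 for MCU, with the sign turned as for ANXA4. MCU and VDAC1 lay higher without overlap, 2 of 6 where 10.3% of all genes tested did not overlap. MCUR1 had the widest interval of the 6, -0.24 to 0.04 log2. The intervals use a spread shared by all 7 groups. Recovered reads differed more between array replicates (chi-square per degree of freedom 5.91 to 13) than between replicates of the other groups (2.25 to 4.16). The array libraries were also deeper, and the intervals here may be too narrow.

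The 2 targeting hairpins were compared with each other, which leaves out the libraries by which MCU was chosen. Of the 6 genes, 2 were higher and 1 was lower with shRNA ANXA4 than with shRNA B4GALNT1 (limma, 3 of 6, where 46.7% of all genes tested were called, 27.1% higher and 19.6% lower). LETM1 was the largest difference, and MCU was lower by a small amount. The median over the 6 genes was 0.0596 log2, beside 0.033 over all genes tested.

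LETM1, the cation/proton exchanger, was at 38.6, 38.8 and 36.8 FPKM with shRNA ANXA4 and at 28.4, 27.5 and 27.5 with shRNA B4GALNT1. The groups did not overlap, and the difference was 0.44 log2 (SE 0.0429, limma adjusted p = 9.08e-08, exact permutation p = 0.1, the smallest that 3 against 3 can give). MCUR1, the uptake regulator, was at 10.3, 9.03 and 10.2 FPKM with shRNA ANXA4, above 8.31, 7.83 and 8.20 with shRNA B4GALNT1. Its difference was 0.25 log2 (SE 0.0649, limma adjusted p = 0.00381).

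MCU itself was at 18.8 ± 0.335 FPKM with shRNA ANXA4 and 20.6 ± 1.21 with shRNA B4GALNT1, -0.12 log2 (SE 0.0447, limma adjusted p = 0.0286). This call was lost with only the 2 groups in the model (adjusted p = 0.0644). It was also lost on leaving out shRNA ANXA4 replicate 2 (0.0527) or 3 (0.0914), or shRNA B4GALNT1 replicate 1 (0.071) or 2 (0.16). VDAC1 differed by 0.06 log2 (adjusted p = 0.0775) and was called without the array libraries in the model (0.0337). MICU2 and SMDT1 did not pass, at 0.02 log2 (95% interval -0.10 to 0.15) and 0.06 (-0.05 to 0.16).

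**Figure D3:**
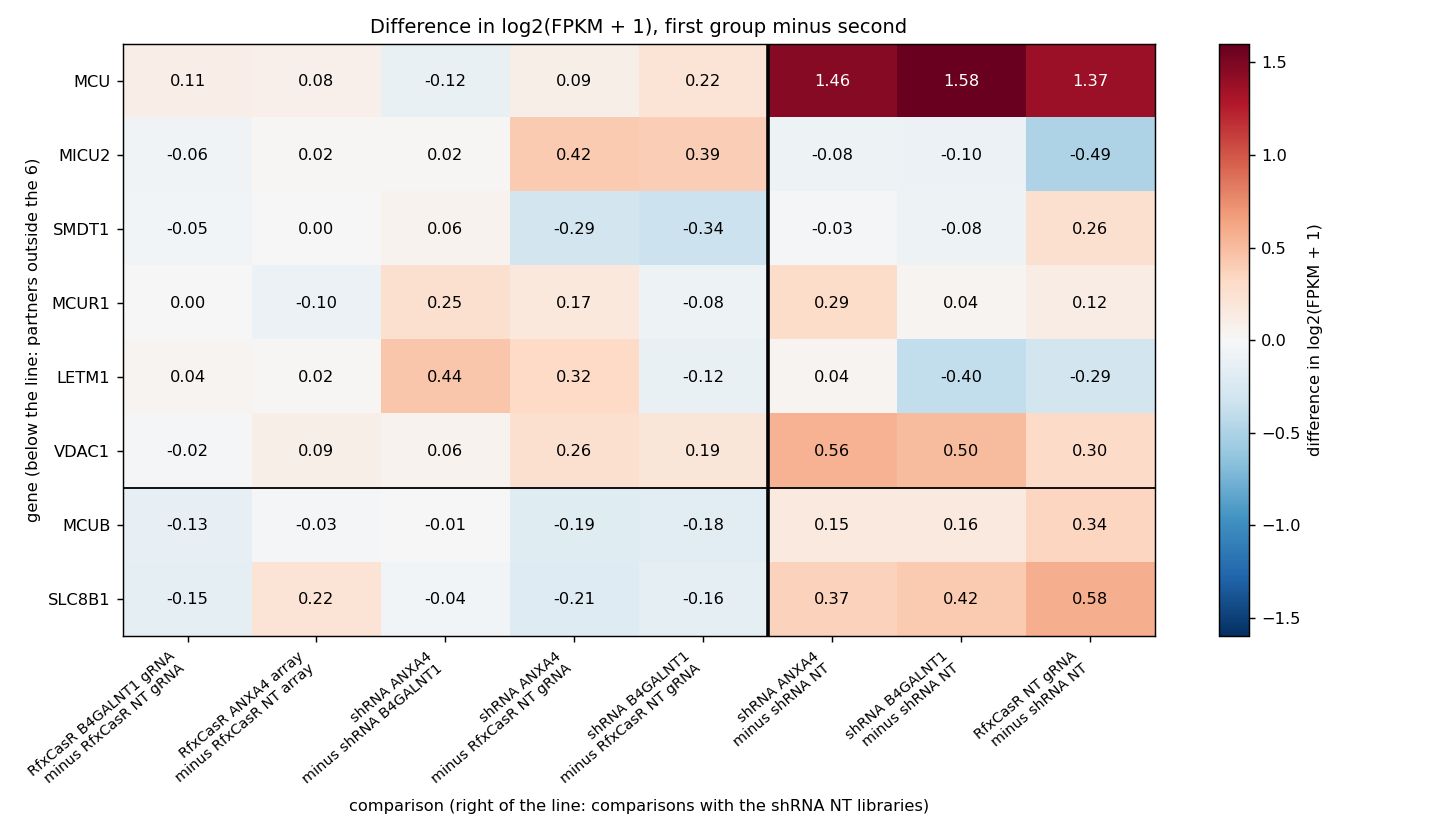
Differences in log2(FPKM + 1), first group minus second, for the 6 genes and for the partners MCUB and SLC8B1 in 8 comparisons, each of 3 libraries against 3, on a colour scale from blue (lower) to red (higher). To the right of the vertical line stand the comparisons with shRNA NT, where MCU is at 1.46, 1.58 and 1.37, and the first 2 columns, between RfxCasR groups, hold only values from -0.15 to 0.22.

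Each targeting hairpin was also set against RfxCasR NT gRNA. These groups differ in the plasmid, the nuclease and the guide at once, which cannot be told apart, and both comparisons share the RfxCasR NT gRNA libraries. With shRNA ANXA4, 4 of 6 genes were higher and 1 was lower (limma, 5 of 6, with 54.0% of all genes tested called, 29.0% higher and 25.0% lower). With shRNA B4GALNT1, 3 were higher and 2 lower (limma, 5 of 6, with 40.9% called, 19.4% higher and 21.5% lower). The medians over the 6 genes were 0.213 and 0.0559 log2, beside 0.0151 and -0.0176 over all genes tested.

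MICU2, a gatekeeper at chromosome 13, 22066828 to 22178355 (hg19, minus strand), gave the largest of these differences. It was at 19.9, 17.4 and 19.8 FPKM with RfxCasR NT gRNA and at 18.3, 17.7 and 18.6 with RfxCasR B4GALNT1 gRNA. In the other 15 libraries it ranged from 24.7 to 29.8, with a median of 26.1. All 6 single-guide libraries thus lay below all others, including the array libraries, which also carried the nuclease and had group means of 26.9 and 27.4. MICU2 was higher than with RfxCasR NT gRNA by 0.42 log2 with shRNA ANXA4 (SE 0.0598, limma adjusted p = 1.09e-05) and by 0.39 with shRNA B4GALNT1 (SE 0.0598, limma adjusted p = 3.69e-05).

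SMDT1, which encodes EMRE (chromosome 22, 42475695 to 42480288, hg19, plus strand), ran the other way. It was at 27.8, 28.6 and 31.4 FPKM with RfxCasR NT gRNA and at 26.9, 30.7 and 27.2 with RfxCasR B4GALNT1 gRNA. In the other 15 libraries it lay between 22.4 and 24.4, so the single-guide libraries were above all others without overlap. SMDT1 was lower than with RfxCasR NT gRNA by -0.29 log2 with shRNA ANXA4 (SE 0.051, limma adjusted p = 0.000104) and by -0.34 with shRNA B4GALNT1 (SE 0.051, limma adjusted p = 2.91e-05). That both genes set the single-guide libraries apart was noticed after the values were seen, and the single-guide libraries as a class were not tested against the arrays, which were sequenced more deeply.

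VDAC1 (chromosome 5, 133307566 to 133340824, hg19, minus strand) was at 154, 150 and 151 FPKM with RfxCasR NT gRNA, below 187, 179 and 178 with shRNA ANXA4 and 173, 172 and 176 with shRNA B4GALNT1. The differences were 0.26 log2 (SE 0.0287, limma adjusted p = 5.22e-07) and 0.19 (SE 0.0287, limma adjusted p = 2.98e-05). VDAC1 was the most abundant of the 6 by FPKM, a scale per length, and it rested on 5512 to 5861 recovered reads per shRNA NT library and 7275 to 12975 in the others. Its libraries with shRNA ANXA4 were the highest of all 21.

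LETM1 (chromosome 4, 1813206 to 1857974, hg19, minus strand) fell into 3 levels. It was highest with shRNA NT, at 38.0, 36.5 and 36.6 FPKM, and with shRNA ANXA4. It was at 27.5 to 31.2 FPKM with shRNA B4GALNT1 and both single-guide groups, and at 19.1 to 21.8 in the 6 array libraries. Against RfxCasR NT gRNA it was higher with shRNA ANXA4 by 0.32 log2 (SE 0.0429, limma adjusted p = 4.2e-06). It was lower with shRNA B4GALNT1 by -0.12 log2 (limma adjusted p = 0.0357). The latter call was lost with median-centred libraries (adjusted p = 0.054) and with voom on recovered reads (0.0572). It was lost as well on leaving out shRNA B4GALNT1 replicate 2 (0.0978) or 3 (0.0875), or RfxCasR NT gRNA replicate 1 (0.0859) or 3 (0.12).

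MCUR1 (chromosome 6, 13786781 to 13814792, hg19, minus strand) ranged from 7.40 to 10.3 FPKM over the 21 libraries. With shRNA ANXA4 it was above RfxCasR NT gRNA (8.92, 8.58 and 8.42 FPKM) by 0.17 log2 (SE 0.0649, limma adjusted p = 0.0356). That call was lost with median-centred libraries (adjusted p = 0.0826). It was lost without shRNA ANXA4 replicate 1 (0.13) or 3 (0.114) and without RfxCasR NT gRNA replicate 2 (0.0795) or 3 (0.1). With shRNA B4GALNT1 it differed by -0.08 log2 (adjusted p = 0.339).

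MCU was higher with shRNA B4GALNT1 than with RfxCasR NT gRNA by 0.22 log2 (SE 0.0447, limma adjusted p = 0.000773), with no overlap between 19.3 to 21.7 and 16.6 to 18.3 FPKM. With shRNA ANXA4 the difference was 0.09 log2 (SE 0.0447, limma adjusted p = 0.0909) and was called only without RfxCasR NT gRNA replicate 1 (0.0498) among the alternatives. Both are small beside the gap to shRNA NT, which was 1.37 log2 from the same RfxCasR NT gRNA libraries.

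Of the other subunits, MCUB, the paralogue of the pore, was at 20.9 ± 0.494 FPKM with shRNA NT and 26.7 ± 1.16 with RfxCasR NT gRNA (0.34 log2, limma adjusted p = 0.000126). It was also higher than with shRNA NT by 0.15 log2 with shRNA ANXA4 (limma adjusted p = 0.0456) and by 0.16 with shRNA B4GALNT1 (0.04). Both calls lay near the threshold. For these comparisons the authors' deposited tables give MCUB 0.163 log2 (authors' adjusted p = 0.0963, which does not pass) and 0.205 (0.0314). MICU3, a gatekeeper paralogue, was low, between 0.878 and 2.30 FPKM, and highest with shRNA NT at 2.12 ± 0.224. It was lower than with shRNA NT by -0.63 log2 with RfxCasR NT gRNA, at 1.03 ± 0.256 FPKM (limma adjusted p = 6.36e-05), and by -0.37 with shRNA ANXA4 (0.0051). With shRNA B4GALNT1 the difference was -0.20 log2 and did not pass (0.12). Against RfxCasR NT gRNA, MICU3 was higher by 0.42 log2 with shRNA B4GALNT1 (limma adjusted p = 0.00296) and by 0.25 with shRNA ANXA4 (0.0456).

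Within a library, the FPKM of MCU was 0.255 ± 0.00924 times that of SMDT1 with shRNA NT, and 0.602 to 0.902 times in the means of the other 6 groups. Against MCUB the ratios were 0.296 ± 0.0148 and 0.66 to 0.924, and against MICU2 they were 0.228 ± 0.0164 and 0.731 to 1.05. Against VDAC1 they were 0.0504 ± 0.00124 and 0.103 to 0.127. Each ratio set shRNA NT apart from every other library. These are ratios of messenger RNA and use the values by which MCU was chosen.

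**Figure D4:**
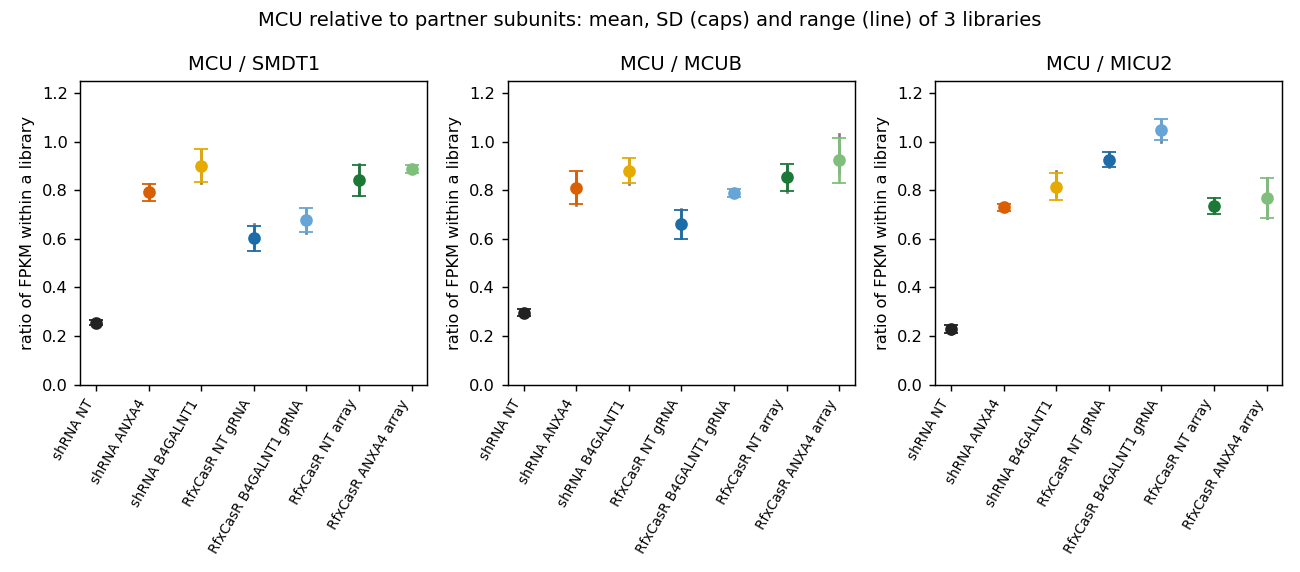
Ratio of the FPKM of MCU to that of SMDT1, MCUB and MICU2 within a library, by group, with the mean as a point, the SD of 3 libraries as caps and the range as a line, on axes from 0. The shRNA NT group is lowest in each panel, at 0.255, 0.296 and 0.228.

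Over all 21 libraries, the genes whose log2(FPKM + 1) followed MCU most closely were MELK (Pearson r = 0.983), SH3GLB1 (0.976), NSA2 (0.975), RBBP9 (0.973), CAP1 (0.971) and SQSTM1 (0.968). The libraries fall into shRNA NT and the rest, so these values describe a shared low level with shRNA NT and carry no test. MELK, a mitotic kinase, was at 11.3 ± 0.0644 FPKM with shRNA NT and at 21.4 to 27.5 elsewhere. NSA2, a ribosome biogenesis factor, was at 20.2 ± 0.347 FPKM and 54.6 to 80.5. SQSTM1, the autophagy receptor p62, was at 20.4 ± 1.02 FPKM and 40.8 to 49.9. Without shRNA NT, over 18 libraries, r was 0.83 for MELK and 0.1 for SQSTM1. By the same measure over 21 libraries, r with MCU was 0.852 for VDAC1, 0.399 for MCUR1, 0.017 for SMDT1, -0.213 for MICU2 and -0.517 for LETM1. Over the 18 libraries without shRNA NT, r was 0.38 for VDAC1, -0.27 for MCUR1, -0.66 for SMDT1, 0.62 for MICU2 and -0.54 for LETM1, so the sign turned for MCUR1, SMDT1 and MICU2.

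The wider calcium pathway, permeability transition, and mitochondrial biogenesis and import were followed in 6 lists of 76 genes outside the 6. Of these, 75 passed the filter. Between the guides and between the arrays, limma and voom both called 0 of 75, with 3 and 6 genes at an unadjusted p under 0.05. Between the targeting hairpins limma called 23 higher and 23 lower (61.3%, against 46.7% of all genes tested). Against RfxCasR NT gRNA, shRNA ANXA4 had 24 higher and 20 lower (58.7%, against 54.0%) and shRNA B4GALNT1 16 and 19 (46.7%, against 40.9%). Against shRNA NT, the counts were 30 higher and 23 lower with shRNA ANXA4 (70.7%, against 51.8%), 25 and 15 with shRNA B4GALNT1 (53.3%, against 44.4%), and 24 and 24 with RfxCasR NT gRNA (64.0%, against 48.9%). The median over the 75 genes was at most 0.0328 log2 from 0 in each of the 8 comparisons.

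**Figure D5:**
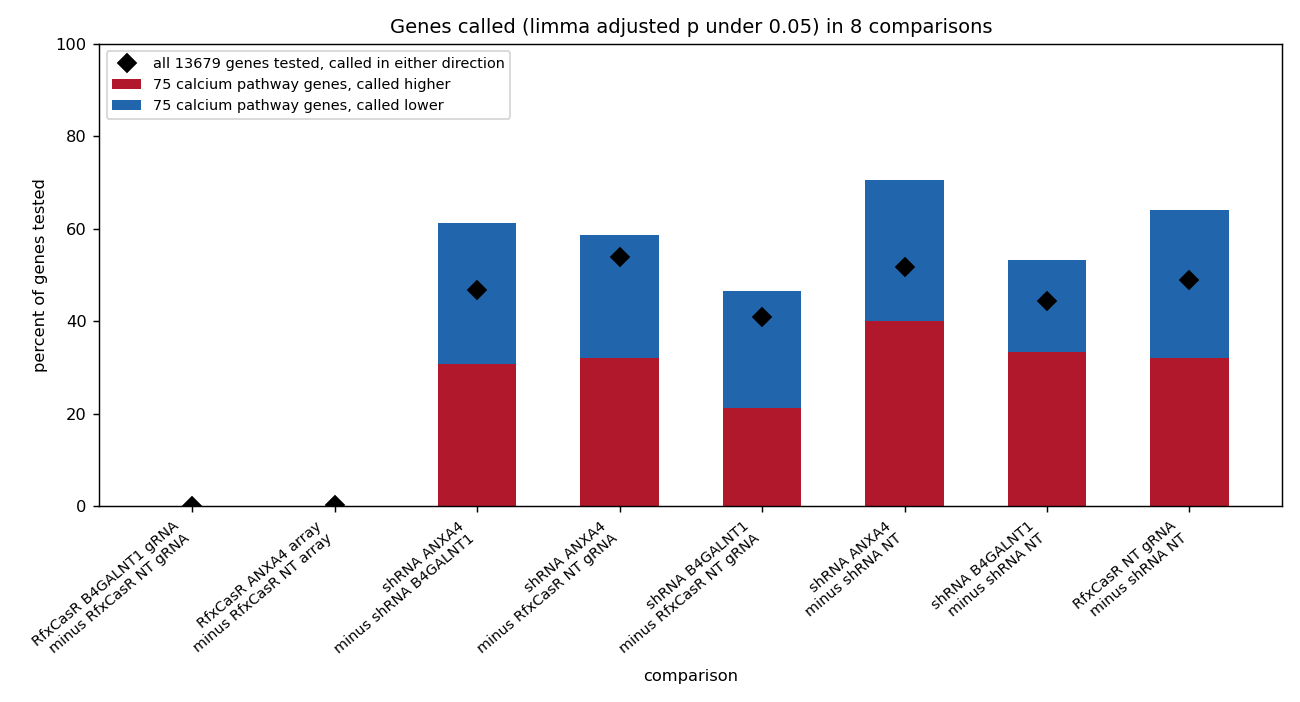
Percent of 75 list genes (calcium pathway genes in the key) called higher (red) or lower (blue) by limma in 8 comparisons, stacked from 0. A black diamond marks the percent of all 13679 genes tested that were called. The bars reach 46.7% to 70.7% in the 6 comparisons that include a hairpin group and 0 in the 2 between RfxCasR groups, and each holds both directions where it holds any.

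The lists are given next by their limma calls against shRNA NT, with shRNA ANXA4, shRNA B4GALNT1 and RfxCasR NT gRNA in that order, where 51.8%, 44.4% and 48.9% of all genes tested were called. Of the 8 uniporter partners, 4 were higher and 3 lower, then 4 and 1, then 2 and 4 (87.5%, 62.5% and 75.0%). MAIP1, which protects EMRE before assembly, was higher with shRNA ANXA4 than with shRNA NT, at 17.6 ± 0.104 against 11.5 ± 0.725 FPKM (0.57 log2, limma adjusted p = 4.09e-05). With shRNA B4GALNT1 its difference from shRNA NT was 0.3 log2 (limma adjusted p = 0.0122). SLC25A23, a calcium-regulated ATP-magnesium carrier, was at 22.9 to 24.8 FPKM with shRNA NT and 28.7 to 35.4 in all other libraries. With RfxCasR NT gRNA it was at 35.1 ± 0.205 against 24.0 ± 0.938 FPKM with shRNA NT (0.53 log2, limma adjusted p = 1.99e-10). SPG7, a subunit of the protease that degrades free EMRE, was lower with shRNA ANXA4 than with shRNA B4GALNT1 (-0.38 log2, limma adjusted p = 6.43e-07).

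Of the 9 cation exchangers and channels, 4 were higher and 2 lower, then 4 and 2, then 4 and 1 (66.7%, 66.7% and 55.6%). SLC8B1, the sodium/calcium exchanger that empties the matrix, was at 2.6 to 2.92 FPKM with shRNA NT and 3.55 to 5.19 in all other libraries. With RfxCasR NT gRNA it was at 4.68 ± 0.472 against 2.80 ± 0.173 FPKM with shRNA NT (0.58 log2, limma adjusted p = 3.73e-06). Of the 17 genes of calcium supply from the endoplasmic reticulum, 8 were higher and 7 lower, then 4 and 4, then 6 and 7 (88.2%, 47.1% and 76.5%). RMDN3, a tether between endoplasmic reticulum and mitochondria, was at 7.9 to 8.87 FPKM with shRNA NT and 9.96 to 17.4 in all other libraries. It was higher with shRNA ANXA4 than shRNA NT, at 15.1 ± 1.5 against 8.29 ± 0.514 FPKM (0.79 log2, limma adjusted p = 6.31e-08). In the same comparison ATP2A3, a calcium pump of the endoplasmic reticulum, was lower, at 1.52 ± 0.235 against 2.66 ± 0.154 FPKM (-0.54 log2, limma adjusted p = 6.19e-06).

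Of the 16 matrix enzymes and carriers controlled by calcium, 5 were higher and 5 lower, then 4 and 4, then 3 and 8 (62.5%, 50.0% and 68.8%). Against RfxCasR NT gRNA, where 54.0% and 40.9% of all genes tested were called, 7 were higher and 3 lower with shRNA ANXA4, and 4 and 4 with shRNA B4GALNT1. GPD2, the glycerol phosphate dehydrogenase that calcium activates, was at 11.4 to 13.1 FPKM with shRNA NT and 8.34 to 10.6 in all other libraries. With RfxCasR NT gRNA it was at 8.75 ± 0.315 against 12.3 ± 0.853 FPKM with shRNA NT (-0.45 log2, limma adjusted p = 1.02e-06). IDH3G, a subunit of the NAD-dependent isocitrate dehydrogenase, was higher with shRNA ANXA4 than with RfxCasR NT gRNA (0.67 log2, limma adjusted p = 9.86e-11). Of the 9 permeability transition genes tested, 3 were higher and 3 lower, then 3 and 2, then 4 and 2 (66.7%, 55.6% and 66.7%). Against RfxCasR NT gRNA, 0 were higher and 3 lower with each targeting hairpin. ATP5O, a subunit of the ATP synthase stalk, was at 114 to 128 FPKM with shRNA NT and 221 to 321 in all other libraries. With RfxCasR NT gRNA it was at 240 ± 6.58 against 120 ± 6.94 FPKM with shRNA NT (0.99 log2, limma adjusted p = 1.44e-12).

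Of the 16 genes of mitochondrial biogenesis and import, 6 were higher and 3 lower, then 6 and 2, then 5 and 2 (56.2%, 50.0% and 43.8%). TOMM40, the pore of the outer membrane translocase, was at 62.5 to 68.7 FPKM with shRNA NT and 76.8 to 110 in all other libraries. It was higher with shRNA ANXA4 than shRNA NT, at 101 ± 4.67 against 65.5 ± 3.13 FPKM (0.62 log2, limma adjusted p = 3.91e-07). In the same comparison PPARGC1A, the coactivator PGC-1 alpha, was lower, at 0.767 ± 0.0931 against 1.46 ± 0.158 FPKM (-0.48 log2, limma adjusted p = 0.000136).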

How the data were processed

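Stranded mRNA libraries were sequenced from 21 HEK 293FT samples in 7 groups of 3. The submitters' processing notes name FastQC, STAR, HOMER, DESeq2 (1.14.1), R (3.3.2) and hg19 without saying what each did. Per the file headers, HOMER counted sense-strand exon reads, condensed transcripts to genes and wrote FPKM for 27142 genes. The authors' 4 deposited comparison tables give log2 changes and adjusted p-values, which are quoted only as theirs; their remaining column was not used. Exon length in bases comes from the deposited table.

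The fit took the 13679 genes that reached 1 FPKM in 3 or more libraries, as log2(FPKM + 1), in 1 model of the 7 groups (limma 3.58.1, R 4.3.3, intensity trend, no replicate term). Calls had a Benjamini-Hochberg adjusted p under 0.05 over all genes of a comparison; 95% intervals are unadjusted. Exact permutation tests were two-sided (scipy 1.17.1). Multiplying FPKM by exon length recovered whole reads, to a tolerance of 0.1, for between 95.6% and 99.5% of the values in a library. These reads gave the depths and went to voom, the alternative count-based fit. The limma step was tested on simulated data.

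The members and lists were chosen with earlier results of these data known. Named genes are the 6 members, the 6 genes most correlated with MCU, and, from each list and comparison, called genes among the 3 with the largest differences, with ANXA4 as a check of the labels. MCUB, MICU3 and SLC8B1 are given in addition as remaining subunits and the exchanger, chosen with their values known. Alternatives were a pseudocount of 0.1, filters above 0 and at 5 FPKM, median-centred libraries, only the groups compared, no array libraries, a replicate block, voom, and leaving out each library. Most genes of the lists are given only in counts.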

Additional observations from a re-analysis of the deposited data

Results flagged for a closer look

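LETM1 was lower with the hairpin against B4GALNT1 than with its control, whereas the guide showed no called difference from its own control. With the hairpin it was at 27.8 ± 0.496 FPKM against 37.1 ± 0.825 with shRNA NT, a difference of -0.40 log2, and all 3 libraries were lower. With the guide it was at 31.0 ± 0.141 FPKM against 30.2 ± 0.783, a difference of 0.04 log2 that did not pass the test (95% interval -0.05 to 0.13, limma adjusted p = 1), so no direction is shown on that side. The guide libraries lay above their controls only narrowly, the lowest at 31.0 and the highest control at 30.9. The difference between the reagents was not tested, and the hairpin side uses the shRNA NT libraries.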

How the results depend on the processing

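In the 5 comparisons without shRNA NT, 414 values of the 6 genes were recomputed. Of these, 396 stayed on the same side of the threshold, 16 lost a call and 2 gained one. A change of sign with a call in either fit occurred in 0. Sign changes without a call in either fit are among the 396, as for LETM1 between the arrays (-0.04 to 0.05 log2). The count of the 6 genes called was 0 throughout between the guides and between the arrays. Between the targeting hairpins it was 2 to 4, and 2 to 3 when single libraries were left out. Against RfxCasR NT gRNA it was 4 to 6 for shRNA ANXA4 and 4 to 5 for shRNA B4GALNT1, the same ranges as when single libraries were left out. With a pseudocount of 0.1 the MCU difference from shRNA NT was 1.59 log2 for shRNA ANXA4, 1.72 for shRNA B4GALNT1 and 1.49 for RfxCasR NT gRNA; with voom it was 1.61, 1.77 and 1.53. MCU per M reads in genes was 7.24 with shRNA NT and 20.5 to 24.4 in the other groups. Group sizes of 3 limit every test.

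Same-numbered libraries had weak correlations of their deviations from the group means, from -0.146 to 0.0901. Between the guides, each library correlated best with its own number (0.0723, 0.054 and 0.0325). Between the arrays none did (-0.146, -0.026 and 0.059). Pairing by replicate number was therefore neither assumed in the main fit nor excluded. With the replicate block the counts of the 6 genes called were 0, 0, 3, 5 and 5, as without it, and the MCU difference between the targeting hairpins was -0.12 log2 (limma adjusted p = 0.0268).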
